A study of Arabidopsis thaliana with 12 samples.

Results

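The type-A ARABIDOPSIS RESPONSE REGULATOR (ARR) genes are described here in roots of wild-type Arabidopsis seedlings. The family was taken by gene identifier, ARR3, ARR4, ARR5, ARR6, ARR7, ARR8, ARR9, ARR15, ARR16 and ARR17, and all 10 members were among the 20814 genes measured. The seedlings grew for 4 d and then spent 3 d on fresh medium with 5 µM BiAux, with 10 nM IAA, with both compounds (BiAux+IAA) or on mock medium, and poly(A) RNA of the roots was sequenced. Each of the 4 treatments had 3 libraries, 12 in all, and all of them come from the wild type, so the treatment is the only difference that the labels give between the groups. IAA is the natural auxin of plants, and BiAux is a synthetic conjugate built from methylated auxin units with a glucoside. The question of the comparison was how BiAux, alone or beside IAA, changes the root transcriptome. The members were chosen by gene identifier, with no threshold on a measured value, but the family as a whole was proposed with results of these libraries known, and which of their values bore on that choice is not recorded. The values are therefore a description, and the p-values below are not independent evidence that this family responds.

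The treatment of a library was read from its title, which the table repeats, and it is in doubt. For 7 of the 12 libraries, the label that records the treatment gives a different one from the title. A list of fold changes that accompanies the study also places the changes of the libraries titled IAA under BiAux, so the names BiAux and IAA may be exchanged in one of these places. That exchange would leave the double treatment and mock as they are, and the libraries called BiAux and IAA below would swap names. The treatment label does not give a plain exchange. It records mock 3 as BiAux, BiAux 1 and BiAux 2 as IAA, and BiAux 3 and the 3 IAA libraries as BiAux+IAA, so it also conflicts with the titles on which libraries are mock and which had both compounds. Libraries are therefore called by their titles. The deposited values are normalized counts, and each library summed to between 32414000 and 32720500 of them. The methods of the study give a common figure for the reads per library. The depth of each library is therefore unknown, and the counting error of a low value was not computed. Nothing states that libraries of a group came from separate cultures, so the p-values measure the spread between these libraries. The root genes fixed for a check of the tissue, 8 of 8 in the table, summed to between 10812 and 16451 normalized counts per 1e6 of the median library total (CPM) over the libraries. Of 9 leaf photosynthesis genes, 4 were in the table. They summed to 37.5 to 39.1 CPM in BiAux, 36.4 to 51.3 CPM in IAA and 39.2 to 51.9 CPM in BiAux+IAA libraries, against 59.1 to 61.5 CPM in mock libraries, so every treated library lay below every mock library, and the part of this in the results was not tested. Replicate 1 of BiAux and replicate 1 of mock stood apart together. PLT2, a regulator of the root meristem, had 151 normalized counts in BiAux 1 and 187 in mock 1, the lowest of the 12 libraries, and CASP1, which builds the Casparian strip of the differentiated endodermis, had 14302 and 14441, the highest. In whole roots, fewer cells of a type and less RNA per cell cannot be told apart.

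Cytokinin is sensed by histidine kinase receptors (AHKs), which pass a phosphate group through phosphotransfer proteins (AHPs) to the response regulators. The type-B ARRs are transcription factors that then switch on cytokinin target genes, among them the type-A ARR genes. The type-A proteins carry the receiver domain without the DNA-binding part, and they damp the pathway that induces them, so their transcripts serve as a common readout of cytokinin response. In roots, cytokinin opposes auxin in the initiation of lateral roots, and auxin in turn induces ARR7 and ARR15 in the embryonic root.

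ARR17, ARR7, ARR5 and ARR6 are the members that lay entirely above mock in BiAux+IAA, and their promoters are shown with that of ARR16, the closest relative of ARR17, of which no change was called. Each sequence holds the 300 bases before the annotated gene start, 5′ to 3′ on the strand of the gene, from the RefSeq genome TAIR10.1. The core motif bound by type-B ARRs was searched as AGATT and AGATC on both strands, and capitals mark each match.
ARR17 (chr3:20904964-20905263, plus strand): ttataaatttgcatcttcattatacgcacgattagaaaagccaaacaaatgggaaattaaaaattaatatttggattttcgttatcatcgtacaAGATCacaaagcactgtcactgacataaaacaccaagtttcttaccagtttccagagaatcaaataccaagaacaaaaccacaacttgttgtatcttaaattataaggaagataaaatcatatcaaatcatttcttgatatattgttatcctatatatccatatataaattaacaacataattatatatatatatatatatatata
ARR16 (chr2:16969373-16969672, plus strand): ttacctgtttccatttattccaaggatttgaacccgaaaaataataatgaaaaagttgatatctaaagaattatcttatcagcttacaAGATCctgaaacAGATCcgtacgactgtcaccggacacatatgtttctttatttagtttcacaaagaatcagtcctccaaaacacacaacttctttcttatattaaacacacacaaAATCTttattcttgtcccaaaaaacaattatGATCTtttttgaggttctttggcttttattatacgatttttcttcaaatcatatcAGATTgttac
ARR7 (chr1:6579315-6579614, minus strand): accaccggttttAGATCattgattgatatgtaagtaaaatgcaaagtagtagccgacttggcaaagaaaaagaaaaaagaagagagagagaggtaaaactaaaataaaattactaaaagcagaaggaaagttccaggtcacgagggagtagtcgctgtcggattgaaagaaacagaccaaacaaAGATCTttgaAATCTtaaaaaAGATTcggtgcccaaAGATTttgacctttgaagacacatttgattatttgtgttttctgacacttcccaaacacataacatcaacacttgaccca
ARR5 (chr3:17760951-17761250, minus strand): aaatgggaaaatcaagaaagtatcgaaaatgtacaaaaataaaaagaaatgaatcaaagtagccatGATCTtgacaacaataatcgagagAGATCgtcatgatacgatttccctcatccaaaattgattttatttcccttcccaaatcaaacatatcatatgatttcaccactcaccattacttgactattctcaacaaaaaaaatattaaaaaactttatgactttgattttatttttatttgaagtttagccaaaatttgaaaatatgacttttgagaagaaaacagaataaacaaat
ARR6 (chr5:25254319-25254618, minus strand): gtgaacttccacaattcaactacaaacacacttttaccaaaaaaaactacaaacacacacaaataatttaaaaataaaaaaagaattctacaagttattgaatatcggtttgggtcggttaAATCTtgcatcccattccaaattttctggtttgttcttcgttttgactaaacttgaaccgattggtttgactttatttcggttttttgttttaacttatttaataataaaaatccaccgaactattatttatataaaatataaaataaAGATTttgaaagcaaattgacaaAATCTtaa

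The window of ARR7 held 6 matches, of which a pair overlaps on opposite strands, and that of ARR16 held 5. The window of ARR6 held 3 matches, that of ARR5 held 2 and that of ARR17 held 1. Among the members not printed, ARR15 had 4 matches, ARR9 had 2, and ARR3, ARR4 and ARR8 had 1 each. At least 1 match was found in 79.9% of the 27437 promoters of protein-coding genes of the same length, with a median of 2, and 11.5% held 4 or more. The number of matches did not order the members by their change, since ARR16 had more matches than ARR17. The auxin response element TGTCTC, searched on both strands, occurred in the window of ARR3 and in 13% of all promoters. The variant TGTCGG occurred in that of ARR7 and in 4.91% of all promoters. The map of matches before the gene starts gives their positions.

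**Figure D1:**
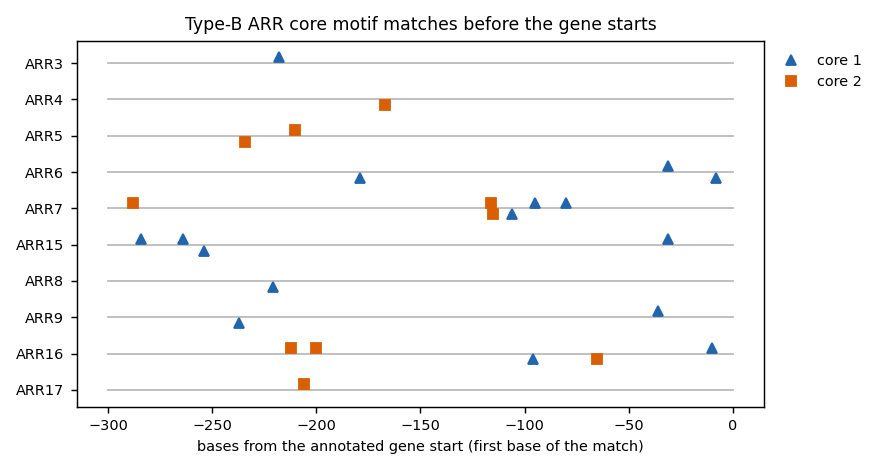
Positions of the type-B ARR core motif in the 300 bases before the start of each type-A ARR gene. The x axis gives bases from the annotated gene start, triangles (core 1) stand for AGATT and squares (core 2) for AGATC, drawn above the line for the strand of the gene and below it for the other strand. ARR7 and ARR16 held the most matches, 6 and 5.

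The members differed in level over a wide range. Divided by the exon length of the longest RefSeq transcript, ARR4, which is known to interact with phytochrome B, was the most abundant, with a mean of 2010 normalized counts per kb over the 12 libraries and a range of 1812 to 2390. ARR8 followed with 1170 per kb (1018 to 1298), ARR6 with 1027 (864 to 1249), ARR9 with 1023 (874 to 1157) and ARR5 with 985 (790 to 1214). These 4 neighbors overlapped in their ranges and cannot be ordered beyond their spread. ARR3 had 430 per kb (359 to 510) and ARR7 had 369 (262 to 636), which also overlapped. ARR16 had 90.5 per kb (74.3 to 111), ARR17 had 47.3 (19.4 to 76.1) and ARR15 had 24.3 (13.9 to 34.3), with overlap between each of these and the next. ARR4 alone made up 32.3% of the summed normalized counts of the family, and ARR17 and ARR15 made up 0.233% and 0.209%. All 10 members passed the filter of a mean of 0.5 CPM over all libraries, but ARR17 (0.898 CPM) and ARR15 (0.806 CPM) lay just above it.

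**Figure D2:**
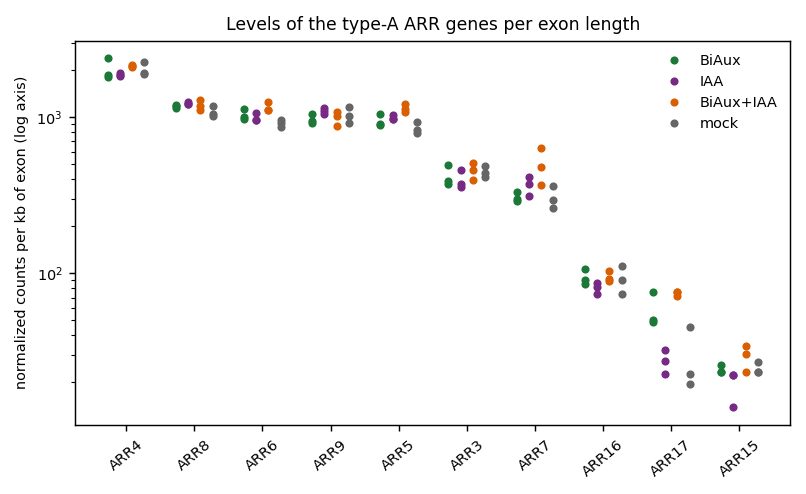
Normalized counts per kb of exon of the 10 type-A ARR genes on a log axis, ordered by their mean. Each point is a library, colored by treatment. ARR4 averaged 2010 per kb and ARR15 averaged 24.3, and the libraries of a gene lay close together except for ARR17, ARR15 and ARR7, whose highest value was 3.92, 2.47 and 2.43 times the lowest.

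ARR17 (AT3G56380, chr3:20905264-20906397), a short type-A regulator, was the member whose level followed BiAux in the titles. It had 47, 31 and 30 normalized counts in BiAux libraries, 17, 14 and 20 in IAA libraries and 44, 47 and 47 in BiAux+IAA libraries, against 28, 14 and 12 in mock libraries. Every library titled with BiAux, alone or with IAA, lay above every library without it. If the names BiAux and IAA were exchanged, the same 6 libraries would be those with IAA. ARR17 was the only member with this separation of 6 against 6 libraries, which 0.471% of the tested genes showed in the same direction and 0.688% in the other. The ratio of the means to mock was 2.00 for BiAux, 0.944 for IAA and 2.56 for BiAux+IAA, and the ratio of BiAux+IAA to IAA was 2.71. For testing with limma, 16.3 normalized counts (0.5 CPM) were added to each value, which shrinks the change of a gene this low. On that scale ARR17 rose by 0.91 in BiAux+IAA compared with IAA (standard error 0.16, limma adjusted p 0.012) and by 0.89 in BiAux+IAA compared with mock (0.20, adjusted p 0.0788). Calls required an unadjusted p under 0.05 together with a log2 fold change beyond 0.5 in either direction, and both of these changes were called. The methods of the study give this pair of limits next to a corrected P-value, and with the adjusted p in the rule the change against IAA was still called and that against mock was not. With 2 CPM added in place of 0.5 CPM, the changes of ARR17 were 0.44 against IAA and 0.42 against mock, and neither passed the limit of 0.5. In BiAux alone ARR17 was also called, with a change of 0.62 (0.23, unadjusted p 0.0289, adjusted p 0.993). Same-numbered BiAux and mock libraries deviated together across genes, and they were treated as pairs on that ground alone. Within these pairs ARR17 was higher in BiAux by 19, 17 and 18 normalized counts. With the pairs as a block, the limma unadjusted p was 0.00253 and the adjusted p 0.0711. In the limma fit without the pairs, the call was lost without mock 2 (change 0.55, unadjusted p 0.0937), mock 3 (0.50, p 0.0929) or BiAux 1 (0.48, p 0.0884). It was kept without mock 1 (0.82, p 0.00475), BiAux 2 (0.69, p 0.0446) or BiAux 3 (0.70, p 0.0399). Without both BiAux 1 and mock 1 the change was 0.68 (unadjusted p 0.00505), and with 2 CPM added it was 0.28 and not called. BiAux 1 and mock 1, which stood apart in the root markers, were also the highest libraries of their groups for ARR17. For IAA against mock the change was -0.02 with a 95% interval of -0.51 to 0.47, and for BiAux+IAA against BiAux it was 0.27 with an interval of -0.11 to 0.64. The low level limits these values, because a few normalized counts separate the groups.

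ARR7 (AT1G19050, chr1:6577833-6579314), known as a target of auxin in the embryonic root and of WUSCHEL in the shoot meristem, was highest in the double treatment. It had 275, 311 and 283 normalized counts in BiAux libraries, 389, 352 and 297 in IAA libraries and 453, 600 and 346 in BiAux+IAA libraries, against 280, 247 and 340 in mock libraries. The BiAux+IAA libraries lay above all BiAux and all mock libraries but overlapped the IAA libraries. ARR7 rose by 0.64 on the log2 scale in BiAux+IAA compared with mock (standard error 0.20, unadjusted p 0.0113, limma adjusted p 0.183) and by 0.63 compared with BiAux (0.18, unadjusted p 0.00731, adjusted p 0.278), and both were called. BiAux+IAA 2 carried much of this. Without it the changes were 0.44 and 0.43 and neither was called. Against IAA the change was 0.39 (0.17, adjusted p 0.226) and was not called, but it was called without BiAux+IAA 3, at 0.58. For BiAux alone the change from mock was 0.01, with an interval of -0.31 to 0.34, and for IAA alone it was 0.25, with an interval of -0.09 to 0.60.

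ARR15 (AT1G74890, chr1:28131447-28133025), the closest relative of ARR7, had 28, 25 and 25 normalized counts in BiAux libraries, 15, 24 and 24 in IAA libraries and 37, 33 and 25 in BiAux+IAA libraries, against 25, 25 and 29 in mock libraries. The IAA libraries lay below all mock libraries by at least 1 normalized count, and BiAux+IAA overlapped mock. No change of ARR15 was called, and the largest was 0.36 for BiAux+IAA against IAA (standard error 0.18, adjusted p 0.284).

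ARR5 (AT3G48100, chr3:17758427-17760950), whose promoter is widely used as a cytokinin reporter, moved with its close relative ARR6 (AT5G62920, chr5:25252007-25254318). ARR5 had 1532, 1297 and 1316 normalized counts in BiAux libraries, 1419, 1410 and 1503 in IAA libraries and 1633, 1760 and 1560 in BiAux+IAA libraries, against 1202, 1145 and 1354 in mock libraries. The double treatment thus lay above every other library of ARR5, and IAA lay above mock. ARR6 had 1638, 1472 and 1418 normalized counts in BiAux libraries, 1393, 1409 and 1562 in IAA libraries and 1631, 1823 and 1633 in BiAux+IAA libraries, against 1348, 1260 and 1396 in mock libraries. Here BiAux and BiAux+IAA both lay above mock, and BiAux+IAA lay above IAA. In BiAux+IAA compared with mock, the log2 fold change was 0.42 for ARR5 (standard error 0.10, unadjusted p 0.00248, limma adjusted p 0.0893) and 0.34 for ARR6 (0.09, unadjusted p 0.00517, adjusted p 0.127). Both stayed under the limit of 0.5 and were not called. Against IAA the changes were 0.19 for ARR5 (adjusted p 0.151) and 0.22 for ARR6 (adjusted p 0.128). In IAA compared with mock ARR5 changed by 0.23 (unadjusted p 0.0365, adjusted p 0.263), and in BiAux compared with mock ARR6 changed by 0.17 (unadjusted p 0.0959, adjusted p 1.00). AT5G62910 is annotated on the opposite strand over 348 bases of ARR6. The sources used here do not state whether strand was used in counting, so reads of this stretch cannot be assigned with certainty.

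**Figure D3:**
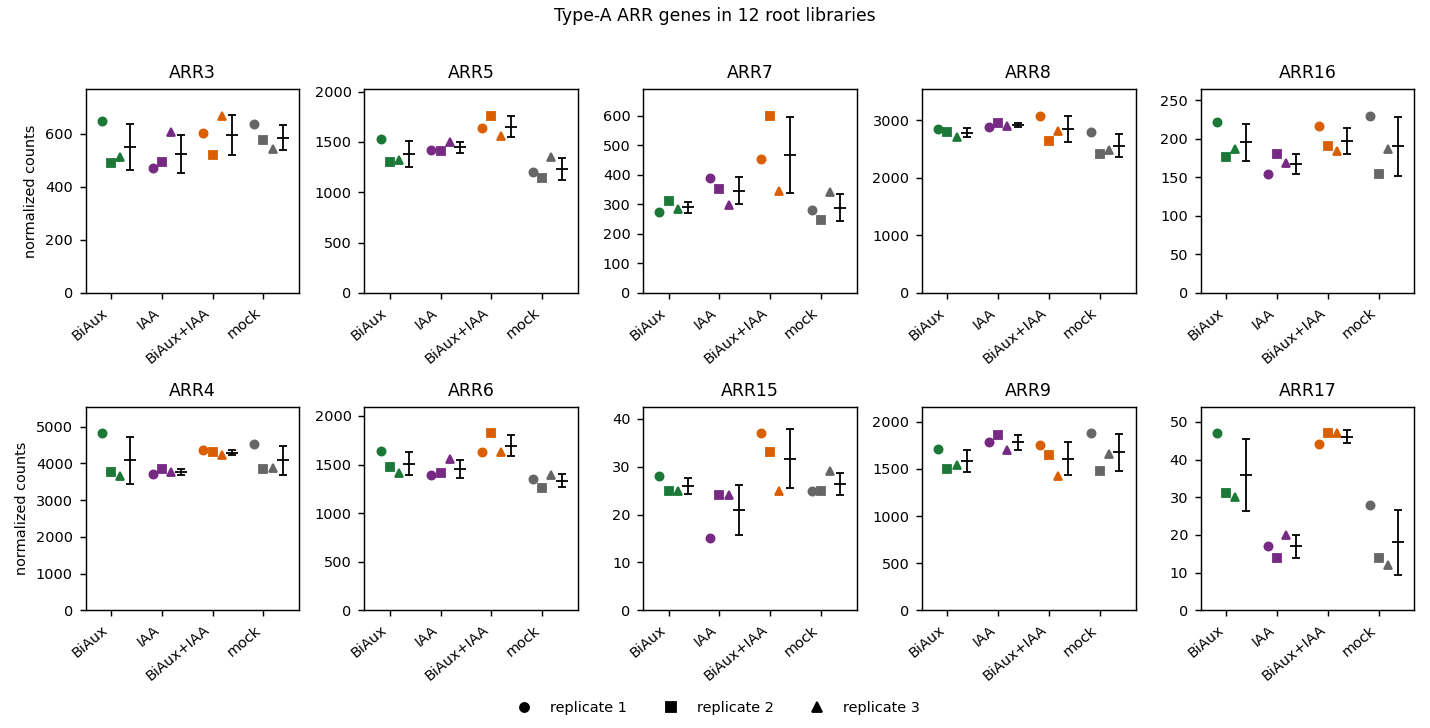
Normalized counts of each type-A ARR gene by treatment, with 1 point per library and the mean with its SD (n = 3) beside the points. Each axis starts at 0, and close relatives stand above each other. ARR17 lay at 30 to 47 in libraries titled with BiAux and at 12 to 28 in the others, and ARR5, ARR6 and ARR7 had their highest means in BiAux+IAA.

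The remaining members moved little. ARR4 (AT1G10470, chr1:3441988-3444360) had 4820, 3760 and 3655 normalized counts in BiAux libraries, 3698, 3850 and 3750 in IAA libraries and 4356, 4299 and 4219 in BiAux+IAA libraries, against 4534, 3834 and 3885 in mock libraries. BiAux 1 and mock 1 were the highest of the 12, and BiAux+IAA lay above IAA with a log2 fold change of 0.19 (standard error 0.06, adjusted p 0.107). ARR3 (AT1G59940, chr1:22065617-22067233), its close relative, ranged between 470 and 668, and its groups overlapped in each comparison. ARR8 (AT2G41310, chr2:17221840-17224880) had 2850, 2799 and 2705 normalized counts in BiAux libraries, 2883, 2946 and 2901 in IAA libraries and 3077, 2635 and 2816 in BiAux+IAA libraries, against 2787, 2413 and 2475 in mock libraries. Its IAA libraries lay above mock, with a change of 0.19 (0.08, adjusted p 0.309). ARR9 (AT3G57040, chr3:21109059-21111567), the relative of ARR8, ranged between 1420 and 1880 with overlap in each comparison. Noncoding genes are annotated on the opposite strand over 299 bases of ARR8 and 231 bases of ARR9. ARR16 (AT2G40670, chr2:16969673-16972113) had 222, 177 and 187 normalized counts in BiAux libraries, 154, 180 and 169 in IAA libraries and 216, 191 and 184 in BiAux+IAA libraries, against 230, 154 and 187 in mock libraries. Its change in BiAux compared with mock was 0.05 with an interval of -0.35 to 0.44, against 0.62 for ARR17.

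In BiAux compared with mock, 1 of 10 members was called higher and 0 lower, where 0.507% and 1.08% of the 19338 tested genes were called. ARR6 and ARR17 lay entirely above mock and no member entirely below, where 3.45% and 6.29% of all genes did. The median log2 fold change of the members was 0.03, against -0.04 over all genes.

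In IAA compared with mock, 0 members were called by limma in either direction, where 1.29% of all genes were called higher and 2% lower. Only ARR5 had an unadjusted p under 0.05, as did 16.8% of all genes. ARR5 and ARR8 lay entirely above mock and ARR15 entirely below, where 12.1% and 11.9% of all genes did, so the members' share was near that of all genes. The median was 0.04, against 0.00 over all genes.

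In BiAux+IAA compared with mock, 2 of 10 were called higher, where 1.87% of all genes were, and 0 lower, where 3.73% were. ARR5, ARR6, ARR7 and ARR17, 4 of 10, lay entirely above mock and 0 below, where 7.28% and 11.6% of all genes did. In this comparison 9 of 10 members had a positive change, with a median of 0.16 against -0.01 over all genes.

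In BiAux+IAA compared with IAA, 1 of 10 was called higher and 0 lower, where 1.51% and 1.89% of all genes were, and the median was 0.20 against -0.01 over all genes. Here 6 of 10 members lay entirely above IAA, namely ARR4, ARR5, ARR6, ARR15, ARR16 and ARR17, and 0 below, where 9.07% and 15.7% of all genes did. In BiAux+IAA compared with BiAux, 1 of 10 was called higher and 0 lower, where 1.1% and 1.64% of all genes were, and the median was 0.14 against 0.02 over all genes. ARR5 and ARR7 lay entirely above BiAux and 0 members below, where 9.88% and 8.65% of all genes did.

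The comparisons with mock share the 3 mock libraries, and those of the double treatment share its 3 libraries, so their values are not independent. ARR17 in BiAux+IAA against IAA was the only change of a member in these 5 comparisons that was called with a limma adjusted p under 0.05. In that comparison 1.89% of all genes were called in this way, and in BiAux+IAA against mock 1.46%, in IAA against mock 0.284%, in BiAux+IAA against BiAux 0.16% and in BiAux against mock 0.031%. With IAA or BiAux+IAA set against BiAux or mock, 6 libraries against 6, 0 members were fully apart, where 1.57% of all genes were higher and 1.49% lower.

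**Figure D4:**
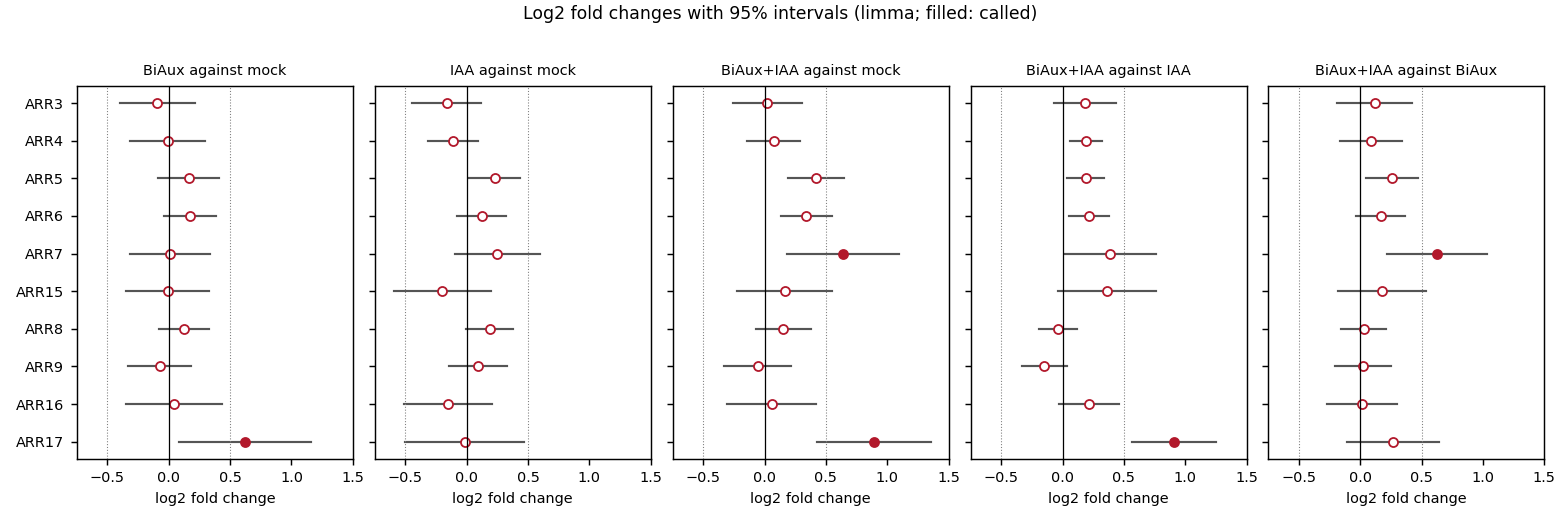
Log2 fold changes of the 10 type-A ARR genes in the 5 comparisons, with 95% intervals from limma on values to which 0.5 CPM was added. Filled points were called, and dotted lines mark -0.5 and 0.5. ARR17 was called in 3 comparisons, with changes of 0.62, 0.89 and 0.91, and ARR7 in 2, with 0.64 and 0.63.

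Whether the effect of BiAux differed with and without IAA was tested as an interaction over all 12 libraries. With limma, 0 of 10 members had an adjusted p under 0.05 and 0 had an unadjusted p under 0.05, while 7.94% of all genes had an unadjusted one. The interaction was largest for ARR15 (0.38, standard error 0.21, adjusted p 0.711) and ARR7 (0.38, 0.25, adjusted p 0.755). For ARR17 it was 0.28, with an interval of -0.29 to 0.86. Without BiAux+IAA 3 the interaction of ARR7 was 0.57 (limma unadjusted p 0.0260, adjusted p 0.721). The rise of ARR7 in the double treatment was thus not shown to exceed the sum of both single treatments on the log2 scale. BiAux and IAA were given at doses of 5 µM and 10 nM, so their effects stand side by side here without a test between them.

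Close relatives did not always move together. Across the coding sequences, the pairs with the highest identity were ARR16 and ARR17 (84.9%), ARR3 and ARR4 (83.7%), ARR5 and ARR6 (82.1%), ARR8 and ARR9 (81.3%) and ARR7 and ARR15 (79%). The longest identical stretch between any members was 41 bases, shared by ARR3 with ARR4 and by ARR8 with ARR9. Over the 12 libraries, which share groups, the log2 values of ARR5 and ARR6 had a Pearson correlation of 0.93, the highest of the 45 pairs, and 0.89 after the group means were taken out. The correlation was 0.69 for ARR3 and ARR4, 0.60 for ARR16 and ARR17, 0.46 for ARR8 and ARR9 and 0.36 for ARR7 and ARR15. Within groups these pairs had 0.62, 0.66, 0.64 and 0.20. ARR4 and ARR16, which are not close in sequence, had a correlation of 0.82, and of 0.79 within groups. For both of these genes BiAux 1 and mock 1, which stood apart in the root markers, were the highest libraries. The correlations are descriptions over libraries of 1 experiment. The genes whose log2 values were most like the mean of the standardized members over the 12 libraries, taken from 15218 non-members that averaged 5 CPM or more, were AT1G61667 (Pearson correlation 0.94), AT5G40670 (0.93), AT4G33960 (0.93), RFNR1 (0.91), which encodes a root ferredoxin-NADP oxidoreductase, and AT2G38380 (0.90). Each of these genes had its highest mean in BiAux+IAA. The mean of AT4G33960 was 304 normalized counts in BiAux, 291 in IAA and 369 in BiAux+IAA, against 272 in mock. That of AT2G38380 was 8908 in BiAux, 7591 in IAA and 9016 in BiAux+IAA, against 7601 in mock. The mean of the standardized members was 0.76 in BiAux 1, against -0.43 in BiAux 2 and -0.47 in BiAux 3, so the likeness also reflects that library.

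Of 63 other cytokinin pathway genes in 8 lists, 45 were tested. In BiAux compared with mock, 1 of the 45 was called higher and 0 lower, where 0.507% and 1.08% of all genes were. In IAA compared with mock, 3 were called higher and 0 lower, where 1.29% and 2% of all genes were. All genes called in BiAux or in IAA alone, 1 and 3, were among the 14 tested cytokinin synthesis genes. In BiAux+IAA compared with mock, 3 of the 45 were called higher and 1 lower, where 1.87% and 3.73% of all genes were. The median change was 0.06 against -0.01 over all genes. In BiAux+IAA compared with IAA, 1 was called higher and 1 lower, where 1.51% and 1.89% of all genes were, and compared with BiAux 3 higher and 1 lower, where 1.1% and 1.64% were. CYP735A2 (AT1G67110), the hydroxylase that makes trans-zeatin type cytokinins, had 698, 823 and 701 normalized counts in BiAux libraries, 809, 759 and 749 in IAA libraries and 1227, 1740 and 1244 in BiAux+IAA libraries, against 413, 538 and 532 in mock libraries. All treated libraries lay above mock, and the double treatment lay above both single ones. CYP735A2 rose by 1.47 in BiAux+IAA compared with mock (standard error 0.16, limma adjusted p 0.00691), by 0.83 compared with IAA (0.12, adjusted p 0.00626) and by 0.89 compared with BiAux (0.14, adjusted p 0.0705). Of the other synthesis genes, 14 tested in all, IPT3 and CYP735A1 were also called higher in BiAux+IAA compared with mock. These genes were named after their values were seen. IPT3, which makes cytokinin precursors, averaged 185 ± 32.7 normalized counts in BiAux+IAA and 92.0 ± 25.2 in mock libraries (SD, n = 3 each), a change of 0.91 (limma adjusted p 0.0779). It averaged 157 ± 8.02 in IAA and 125 ± 14.8 in BiAux libraries. Its IAA libraries (149 to 165) also lay above mock (63 to 108), and they overlapped BiAux+IAA (161 to 222). CYP735A1 changed by 0.61 in BiAux+IAA compared with mock (adjusted p 0.0506). Its means were 196 in BiAux+IAA, 165 in IAA, 150 in BiAux and 123 in mock libraries.

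Upstream of the type-A genes, no receptor, phosphotransfer or type-B gene was called in any of the 5 comparisons, out of 3, 5 and 6 tested. With an adjusted p under 0.05 but a change under the limit, and named after their values were seen, the receptor gene AHK3 was lower and the phosphotransfer gene AHP1 higher in BiAux+IAA compared with IAA. AHK3 had 3615, 4055 and 3511 normalized counts in BiAux+IAA libraries, against 4813, 4783 and 4478 in IAA libraries (a change of -0.33 with a standard error of 0.07 and a limma adjusted p of 0.0313). AHP1 had 2664, 2714 and 2730 in BiAux+IAA libraries, against 2023, 2141 and 2003 in IAA libraries (0.39, 0.06, adjusted p 0.00865). Both pairs of groups were fully apart. In mock libraries AHK3 had 2948, 3572 and 4019 and AHP1 had 2920, 1990 and 2215, which overlapped BiAux+IAA for both genes. The changes from mock in BiAux+IAA were 0.09 and 0.20 (limma adjusted p 0.858 and 0.635). The other receptor genes, AHK2 and AHK4, were also named after their values were seen. In BiAux+IAA, AHK4 lay entirely above mock (0.48, limma adjusted p 0.0787), where 7.28% of all genes did, and overlapped IAA (0.06). AHK4 also lay entirely above BiAux (0.29, adjusted p 0.260), where 9.88% did. AHK2, like AHK3, lay entirely below IAA (-0.15, adjusted p 0.256) and overlapped mock, and it lay above BiAux (0.14). In IAA, all 3 receptor genes lay entirely above mock without a call, where 12.1% of all genes did, and AHP1 overlapped mock. The changes were 0.32 for AHK2, 0.43 for AHK3 and 0.42 for AHK4 (limma adjusted p 0.197, 0.145 and 0.127). KMD1 (AT1G80440), an F-box protein that targets type-B ARRs for degradation, was the only gene of these lists that was called lower in BiAux+IAA, in all 3 comparisons of that treatment. It had 980, 724 and 603 normalized counts in BiAux+IAA libraries, against 1620, 1559 and 1122 in IAA libraries, a change of -0.89 (0.17, adjusted p 0.0189), and against 1662, 1153 and 1224 in mock libraries, a change of -0.80 (0.19, adjusted p 0.0904). Of the 6 tested type-B genes, and also named after their values were seen, ARR1, ARR2 and ARR10 lay entirely below both IAA and mock in BiAux+IAA without a call. Their changes were -0.16, -0.24 and -0.20 against IAA (limma adjusted p 0.166, 0.0625 and 0.113) and -0.09, -0.12 and -0.17 against mock (adjusted p 0.750, 0.656 and 0.420). Of all genes, 15.7% lay entirely below IAA and 11.6% entirely below mock. ARR11 lay entirely below mock (967 to 1247 against 1358 to 1614) and overlapped IAA. ARR12 and ARR14 had higher means in BiAux+IAA than in mock, 2154 against 2066 and 33.3 against 23.3, with overlap. None of the 11 tested cytokinin response factors, which act beside the type-B ARRs, was called in the 5 comparisons. Of the 4 tested cytokinin oxidases, which break the hormone down, CKX7 was called higher in BiAux+IAA compared with BiAux (29, 27 and 34 against 8, 23 and 20 normalized counts, change 0.50, limma adjusted p 0.452). CKX7 averaged 0.660 CPM, just above the filter of 0.5 CPM. BiAux 1, with 8, and mock 1, with 9, were its lowest libraries. In BiAux+IAA compared with mock no oxidase was called, and their median change was 0.35 against -0.01 over all genes. The other oxidases are named after their values were seen. CKX5 had 432, 461 and 434 in BiAux+IAA libraries, above every other library (313 to 403). Means in BiAux+IAA and mock were 501 and 384 for CKX4 and 83.3 and 94.7 for CKX3, both with overlap. The type-C genes ARR22 and ARR24 were not analysed here.

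**Figure D5:**
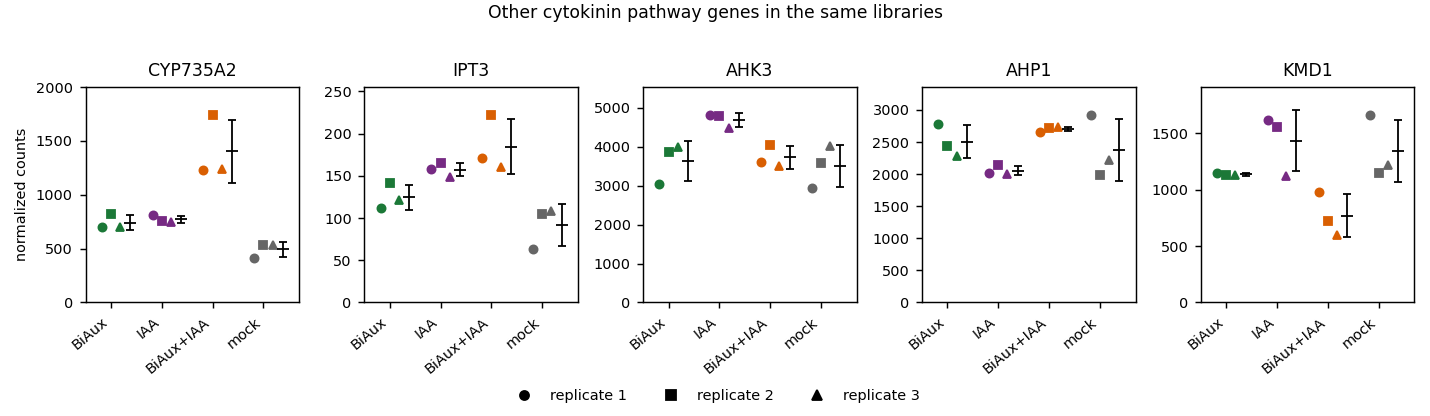
Normalized counts of CYP735A2, IPT3, AHK3, AHP1 and KMD1 by treatment, with 1 point per library and the mean with its SD (n = 3) beside the points. Each axis starts at 0. CYP735A2 lay at 1227 to 1740 in BiAux+IAA and at 413 to 538 in mock, and KMD1 lay at 603 to 980 in BiAux+IAA and at 1153 to 1662 in mock.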

How the data were processed

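Poly(A) RNA of roots was sequenced from 12 libraries, 3 per treatment. Per its methods, the study trimmed reads with Trimmomatic, used STAR for alignment to TAIR10 and HTSeq for counting over the Araport11 annotation, and normalized with edgeR, while the submitters' processing notes list HISAT2 and CASAVA 1.4. The authors deposited the normalized counts on the log2 scale, up to 18.995, and 1 had been added to whole numbers beforehand (100% of values up to 8 came out whole, within 6e-04). The scaling is not given in the sources used here, and no reads could be recovered, so no count model was fitted. The IAA 3 library holds no gene under 3 normalized counts, so genes with almost no reads there were not analysed.

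The log2 step was undone and the added 1 removed. The filter kept 19338 genes that averaged 0.5 CPM or more of the median total, 0.5 CPM (16.3 normalized counts) was added, and the log2 was tested with limma 3.58.1 under R 4.3.3, with lmFit and a trended eBayes. A pair of groups was fitted on its 6 libraries, and the interaction used all 12. Calls needed a log2 fold change beyond 0.5 and an unadjusted p under 0.05. The methods of the study name a corrected P-value of 0.05 and then these limits, so calls with the adjusted p are given too. P-values were adjusted over all tested genes by the Benjamini-Hochberg method. The steps were tested on simulated data. Alternatives were other pseudocounts and filters, median-of-ratios factors (0.923 to 1.06), 1 fit of all 12 libraries, the replicate block, the deposited log2 values and leaving out libraries. Same-numbered BiAux and mock libraries deviated together (r of 0.78, 0.41 and 0.58 across genes), so their numbers were taken as pairs. The deviations are from means of 3 libraries, so these 3 correlations are not independent. BiAux 1 and mock 1 stood apart together, and the pairing was read from the same data that were tested. In the other comparisons at least 1 of the 3 correlations was under 0.1.

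Members, pathway lists and tests were chosen with earlier results of these data known. All members were named. Of the pathway lists, genes called with an adjusted p under 0.05 were named or, failing that, the called gene with the largest change, and others named are marked as such. Promoters, exon lengths and coding sequences came from the RefSeq genome and annotation of TAIR10.1, and the symbols of 20694 of 20814 identifiers from its gene table. ARR names follow the literature where RefSeq uses others (RR3 for ARR8). Sequences were handled in Python 3.11.15 and figures drawn with matplotlib 3.10.9.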

Additional observations from a re-analysis of the deposited data

How the results depend on the processing

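All named changes of members that were called kept their direction under each alternative run. With 2 CPM added in place of 0.5 CPM, or with a filter at 5 CPM, which removes ARR17 and ARR15, the members called fell to 0 of 1 for BiAux against mock, to 0 of 1 for BiAux+IAA against IAA and to 1 of 2 for BiAux+IAA against mock. ARR17 then changed by 0.28, 0.44 and 0.42 with 2 CPM added, and by 0.93, 1.29 and 1.29 with 0.1 CPM added. With the adjusted p in place of the unadjusted p in the call rule, an alternative chosen after seeing the data, limma called 0 members in BiAux against mock. In BiAux+IAA it called 0 when set against mock, 0 against BiAux and 1, ARR17, against IAA. Leaving out 1 library at a time gave 0 to 1 member for BiAux against mock, 1 to 2 for BiAux+IAA against mock, 1 to 2 for BiAux+IAA against IAA, 0 to 1 for BiAux+IAA against BiAux and 0 to 2 for the interaction. In 1 fit of all 12 libraries, the adjusted p in BiAux+IAA against mock was 0.0194 for ARR17, 0.0196 for ARR5 and 0.0375 for ARR6. The replicate block changed no call of a member, with 1, 0, 2, 1 and 1 called in the 5 comparisons. With it, the adjusted p of ARR17 was 0.0711 in BiAux and 0.0225 in BiAux+IAA, each compared with mock, and in the second case the numbers do not pair the libraries. The share of all genes called in BiAux against mock was 0.864% with 2 CPM added and 3.98% without mock 1, and the genes with an adjusted p under 0.05 numbered 538 with the block and 6 without it. ARR17 and ARR15, with 12 to 47 normalized counts, are limited by their low level, and the depth of each library is unknown. Leaving out both mock 1 and BiAux 1 was chosen after seeing the data.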
